A study of Homo sapiens with 4 samples.

Results

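Tissue kallikreins are secreted serine proteases that are made as inactive zymogens and are encoded side by side in one gene cluster on chromosome 19. The genes examined were 9 of them, KLK5, KLK6, KLK7, KLK8, KLK10, KLK11, KLK12, KLK13 and KLK14, together with SPINK5, the epithelial inhibitor of several kallikreins, 10 of the 19775 genes that the array annotation names one by one. A probe set, the group of short probes summarised as 1 value, was taken when its annotation gave exactly 1 gene symbol and that symbol was one of the 10, and every such probe set was kept. This gave 16 of the 54613 non-control probe sets and covered 9 of the 10 genes. SPINK5 was not analysed here, because the annotation used tied no single-symbol probe set to it. A further probe set that carries the symbols KLK8 and KLK9 together was left out.

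In stratified epithelium the kallikreins act outside the cell. KLK5 and KLK14, which cut after basic residues, and KLK7, which cuts after aromatic residues, degrade the corneodesmosomes that hold the outermost cells together, and KLK5 can activate the zymogens of others. The inhibitor LEKTI, the SPINK5 product, restrains KLK5, KLK7 and KLK14, and its loss causes the skin disorder Netherton syndrome.

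RNA came from CaSki, an epithelial line from a human papillomavirus-positive cervical carcinoma. All cells had received a lentivirus, carrying GFP as the control or ZNF750, a nuclear zinc finger factor needed for terminal differentiation of epidermis, and each group was measured on 2 arrays of the Affymetrix HG-U133 Plus 2.0 type. The medium is listed as DMEM with 0% fetal bovine serum for both groups, and 6 µg of total RNA was labelled per array. The vector promoter, the time after infection and whether the cells were a pool or a clone are not given in the sources used here, and untransduced cells were not analysed here. The arrays are called biological duplicates, but nothing says how the cultures were kept apart. The p-values rest on the spread between the 2 arrays of each group, pooled in part over all probe sets, and this spread may be technical. The deposited values are log2 signals made by RMA, which subtracts background, quantile normalizes and summarises probes. The summarised values still differed slightly between arrays. Their medians were 5.45 and 5.47 with GFP and 5.49 and 5.51 with ZNF750. Their standard deviations over probe sets were 2.39 and 2.37 with GFP and 2.34 and 2.32 with ZNF750. Groups were compared with limma, a linear model that pools the spread over probe sets, with p-values adjusted over all 54613, and a probe set was said to rise or fall at an adjusted p under 0.05.

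The only ZNF750 probe set (219995_s_at) read 2.13 and 2.37 in the GFP arrays and 2.23 and 2.29 in the arrays labelled ZNF750. These log2 values lay near the bottom of the table, at percentile 0.452 of the probe set means, and the groups overlapped. This value does not bear out the label. Which stretch of the transcript the probes read was not analysed here, so whether they could see the introduced gene is not known, and the second group is called ZNF750-labelled. Epithelial markers were bright, with a summed linear signal over 7 measured genes of 32000 to 32310 in the GFP arrays and 33370 to 33680 in the ZNF750-labelled arrays. Within them KRT18 fell (-0.34 ± 0.043, limma adjusted p = 0.00408). In the other direction, KRT5 (0.24 ± 0.031, limma adjusted p = 0.00446) and KRT19 201650_at (0.16 ± 0.037, limma adjusted p = 0.0309) rose. The same sum over 3 leukocyte markers was 81.8 to 99.9 and 91.0 to 103.2. Over 3 cervical glandular markers it was 1404 to 1415 and 1294 to 1318, and 1 of the 8 PAX8 probe sets, 221990_at, fell (-0.56 ± 0.085, limma adjusted p = 0.00773). The difference between the 3′ and 5′ control probe sets of ACTB, which grows with RNA breakdown, was 2.81 and 3.03 with GFP and 3.35 and 3.76 in the ZNF750-labelled arrays. The part of these shifts in the results that follow was not tested.

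The stretches upstream of the annotated starts of 3 genes are shown because KLK10 and KLK6 were the members that passed the test and KLK5, which lies in the same cluster, did not. They are from RefSeq's annotation of GRCh38.p14, minus strand of chromosome 19, each 250 bases long and ending at the base before the start. KLK10 has a second annotated start, and the more upstream one is used. Capitals mark the letters CACCC or their reverse complement GGGTG, the core of sites read by Krüppel-like factors.
KLK10 (chr19:51019862-51020111): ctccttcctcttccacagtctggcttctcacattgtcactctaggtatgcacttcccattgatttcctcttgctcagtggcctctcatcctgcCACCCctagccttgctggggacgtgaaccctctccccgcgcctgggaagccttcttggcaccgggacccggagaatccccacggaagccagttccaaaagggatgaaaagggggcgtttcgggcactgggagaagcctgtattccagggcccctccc
KLK6 (chr19:50969592-50969841): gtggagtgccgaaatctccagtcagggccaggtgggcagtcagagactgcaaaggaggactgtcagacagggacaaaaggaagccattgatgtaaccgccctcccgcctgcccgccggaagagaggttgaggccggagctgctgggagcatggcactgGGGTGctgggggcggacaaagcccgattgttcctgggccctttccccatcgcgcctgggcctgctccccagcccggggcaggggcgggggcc
KLK5 (chr19:50953039-50953288): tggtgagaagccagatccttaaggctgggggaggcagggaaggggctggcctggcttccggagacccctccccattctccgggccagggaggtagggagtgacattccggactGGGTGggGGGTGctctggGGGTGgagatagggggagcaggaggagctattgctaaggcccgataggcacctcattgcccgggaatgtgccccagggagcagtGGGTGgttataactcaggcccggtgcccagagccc

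Windows of 300 bases, from 250 before to 50 after a start, were found for 9 of the 10 genes, with 16 windows in all. CACCC, searched on both strands, was in 14 of the 16 windows and in 59.9% of the 35116 windows of the whole table. CCNNAGGC, a motif reported for ZNF750, was searched on both strands and was in 4 of the 16 windows, at KLK10, KLK11 and KLK13, against 27.5% of all windows. Windows of nearby starts of one gene overlap, so these counts take some matches more than once. The KLK13 windows share the same CCNNAGGC match. The KLK10 match was in the window of the second start, on the gene's strand, from 23 to 30 bases past that start. No match was found in the windows of KLK6 or KLK5. The TATA box letters TATAAA, searched on both strands, were in 1 window, that of SPINK5, and in 11.5% of all windows, and TGANTCA, the AP-1 site, which is its own reverse complement, was in 0 windows of these genes and in 7.71% of all. AACCNGTT, a Grainyhead-type site searched on both strands, was in the SPINK5 window and in 1.73% of all. These are matches of letters, and binding was not measured.

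KLK10 rose and was the member with the largest difference. KLK10, known as a gene expressed in normal epithelial cells and often low in breast tumour cells, was read by 2 probe sets. On 209792_s_at the log2 values were 6.17 and 6.20 in the GFP arrays and 7.82 and 7.67 in the ZNF750-labelled arrays. Both ZNF750-labelled arrays lay 1.47 or more above both GFP arrays. The difference was 1.56 ± 0.090 log2 units (limma standard error of the difference, n = 2 arrays per group), a 2.95-fold rise (limma adjusted p = 0.000289). Of all probe sets, 26 had a larger positive difference. Without GFP replicate 1 it was 1.54 and without GFP replicate 2 it was 1.57. Without ZNF750 replicate 1 it was 1.48 and without ZNF750 replicate 2 it was 1.64. Each of these fits leaves 1 array in a group and takes its spread from the other pair alone, so only sizes are given.

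The second KLK10 probe set, 215808_at, was dim and moved the same way by less. Its log2 values were 3.64 and 4.12 with GFP and 4.42 and 4.53 in the ZNF750-labelled arrays, so the groups did not overlap but the GFP arrays were far apart. The difference was 0.59 ± 0.17 and did not pass (limma adjusted p = 0.0705, 95% interval 0.19 to 0.995). The difference on this probe set was 0.97 ± 0.19 log2 units below that on the brighter one (limma adjusted p = 0.00798 over 21316 pairs of probe sets of one gene, a test chosen after the values were seen). Such a disagreement was called in 11.7% of those pairs. The brighter KLK10 probe set has the suffix _s_at, given to probes that can match more than 1 transcript. With all _s_at and _x_at probe sets left out, the remaining KLK10 probe set did not pass (limma adjusted p = 0.0843).

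KLK6 also rose, by less and with less margin. KLK6, a trypsin-like kallikrein also named neurosin, had 1 probe set (204733_at), which read 5.61 and 5.43 with GFP and 5.92 and 6.35 in the ZNF750-labelled arrays. The groups did not overlap, and the 2 ZNF750-labelled arrays were 0.43 apart. The difference was 0.61 ± 0.16, a 1.53-fold rise that passed narrowly (limma adjusted p = 0.0457). The GFP mean of 5.52 lay below the 5.88 that is used further on as a guide to unexpressed probe sets, so the size of the fold is uncertain. With 1 array left out in turn, its difference ranged from 0.40 without ZNF750 replicate 2 to 0.83 without ZNF750 replicate 1. It did not pass without an intensity trend in the variance prior (limma adjusted p = 0.106) or with the replicate number as a block (0.0992). Nor did it pass with all _s_at and _x_at probe sets left out of the table (0.0536), where its difference was unchanged.

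**Figure D1:**
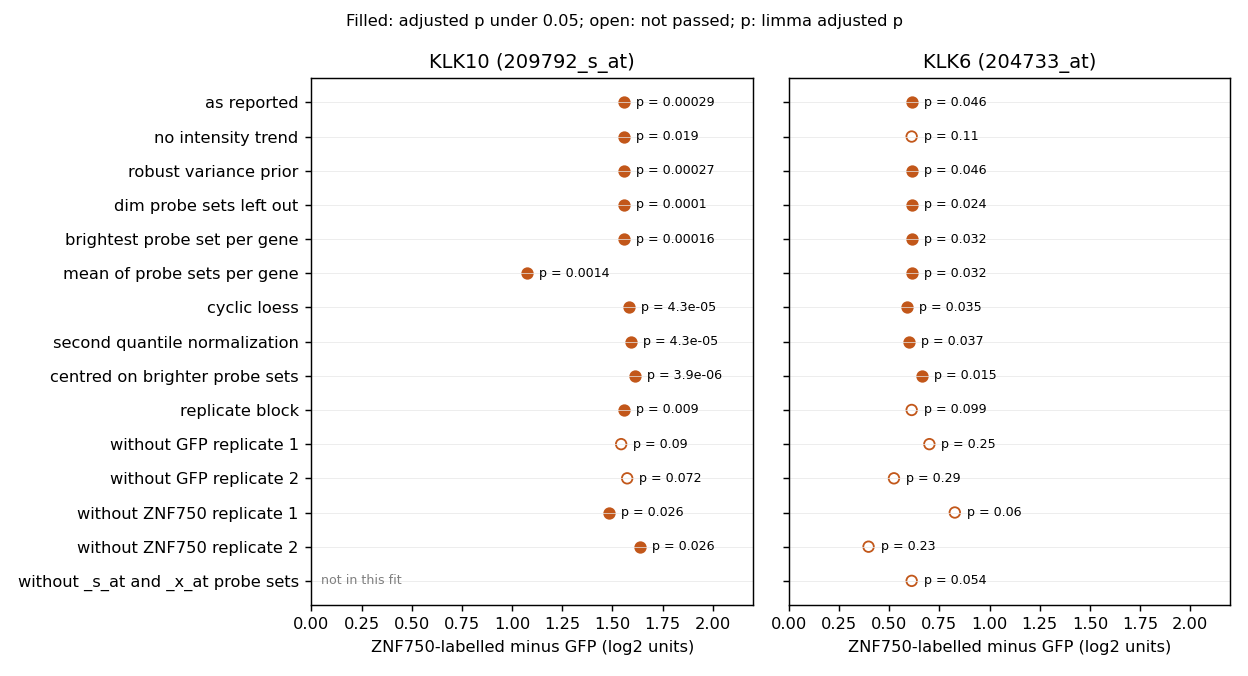
Difference between ZNF750-labelled and GFP arrays in log2 units for KLK10 (209792_s_at, left) and KLK6 (204733_at, right) as reported and under each alternative fit, with the limma adjusted p beside each point. Filled points passed 0.05. Fits without 1 of the arrays leave 1 array in a group, so an open point there says little. Among fits that keep all arrays, KLK10 is filled in each that held it. There KLK6 is open without the intensity trend, with the replicate block and without _s_at and _x_at probe sets.

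The proteases best known for shedding the outer epidermal layer did not pass. KLK5, the trypsin-like protease that starts the activation cascade, was read by a bright probe set (222242_s_at) with log2 values of 8.08 and 8.12 with GFP and 8.12 and 8.06 in the ZNF750-labelled arrays. The groups overlapped, and the difference was -0.0084 ± 0.069 (limma adjusted p = 0.962, 95% interval -0.17 to 0.15). Of the members, its probe set had the narrowest interval. KLK7, the chymotrypsin-like partner of KLK5, read 5.93 and 5.82 with GFP and 5.65 and 5.89 in the ZNF750-labelled arrays on 205778_at, which overlapped (-0.11 ± 0.12, interval -0.39 to 0.17, limma adjusted p = 0.636). Its dim probe set 239381_at gave -0.0023 ± 0.13 (limma adjusted p = 0.997). KLK14, a trypsin-like protease that KLK5 can activate, read 6.33 and 6.17 against 6.31 and 6.18 (220573_at), and its difference of -0.0035 ± 0.11 had an interval from -0.25 to 0.25 (limma adjusted p = 0.992). A rise of the size seen for KLK10 lay outside the intervals of the KLK5 and KLK14 probe sets. Both KLK7 probe sets (means 5.82 and 3.91) lay below the 90th percentile, 5.88, of probe sets of genes restricted to other organs, where a change of the transcript may not be seen. The KLK14 probe set (mean 6.25) lay above that percentile but below the highest of those probe sets, 6.99, so the same limit may apply to it. The KLK5 probe set (mean 8.10) lay above all of them.

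**Figure D2:**
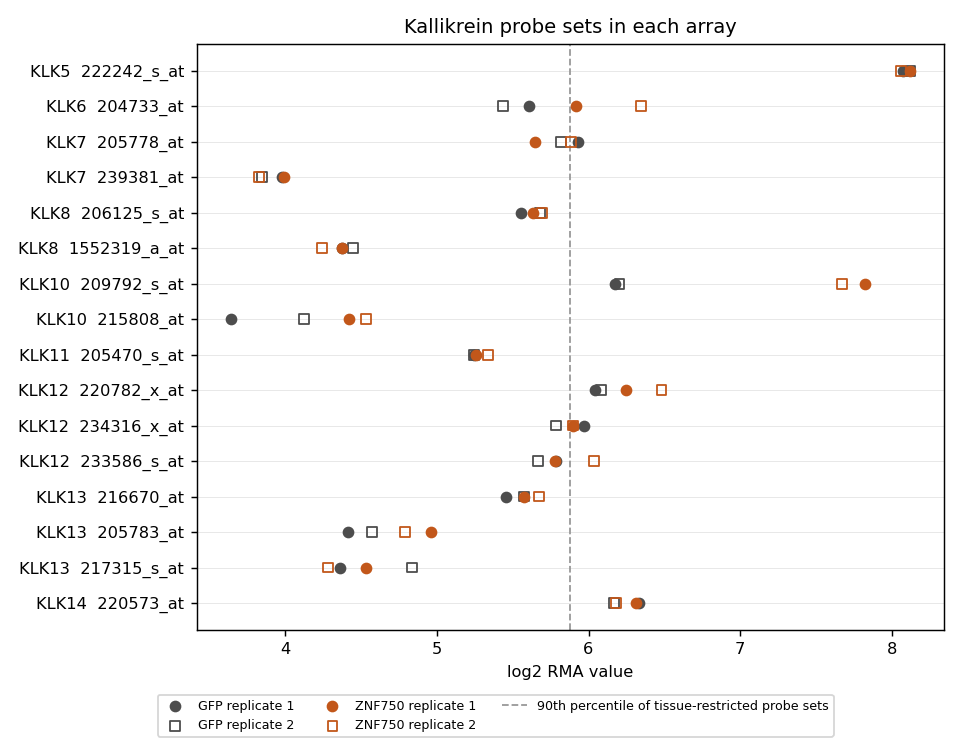
Log2 RMA value (horizontal axis) of each of the 16 kallikrein probe sets (rows) in the 2 GFP arrays (grey) and the 2 ZNF750-labelled arrays (orange), with a dashed line at 5.88, the 90th percentile of the probe sets of tissue-restricted genes. The 2 groups stand apart most on KLK10 209792_s_at, and the 4 arrays coincide on KLK5. Levels of different probe sets are not comparable.

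KLK12 and KLK13, trypsin-like kallikreins, did not pass on any of their 3 probe sets each, of which 5 in all gave a positive difference and 1 a negative one. For KLK12, 220782_x_at read 6.04 and 6.08 with GFP and 6.25 and 6.48 in the ZNF750-labelled arrays. These groups did not overlap (0.30 ± 0.11, limma adjusted p = 0.132, unadjusted p = 0.0272). The other KLK12 probe sets gave 0.18 ± 0.12 (233586_s_at) and 0.018 ± 0.11 (234316_x_at), each with overlapping groups. For KLK13, 205783_at read 4.41 and 4.57 with GFP and 4.96 and 4.79 in the ZNF750-labelled arrays. Its groups did not overlap either (0.38 ± 0.13, limma adjusted p = 0.106, unadjusted p = 0.0190). The remaining KLK13 probe sets gave 0.11 ± 0.11 (216670_at) and -0.19 ± 0.18 (217315_s_at), and both overlapped. The difference between the probe sets of KLK12 or of KLK13 was not called (limma adjusted p from 0.298 to 0.677).

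KLK8, also named neuropsin and a protease of the upper epidermis, and KLK11, a further trypsin-like member, showed small differences. KLK8 read 5.56 and 5.68 with GFP and 5.64 and 5.70 in the ZNF750-labelled arrays on 206125_s_at (0.049 ± 0.11, limma adjusted p = 0.831). Its dim probe set 1552319_a_at gave -0.10 ± 0.12 (limma adjusted p = 0.656). KLK11 read 5.24 in both GFP arrays and 5.25 and 5.34 in the ZNF750-labelled arrays (205470_s_at). The groups were 0.013 apart, and the difference was 0.054 ± 0.11 (limma adjusted p = 0.813, interval -0.20 to 0.31). The 2 GFP values of KLK11 were identical to the last digit, as were those of 340 probe sets of the table.

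**Figure D3:**
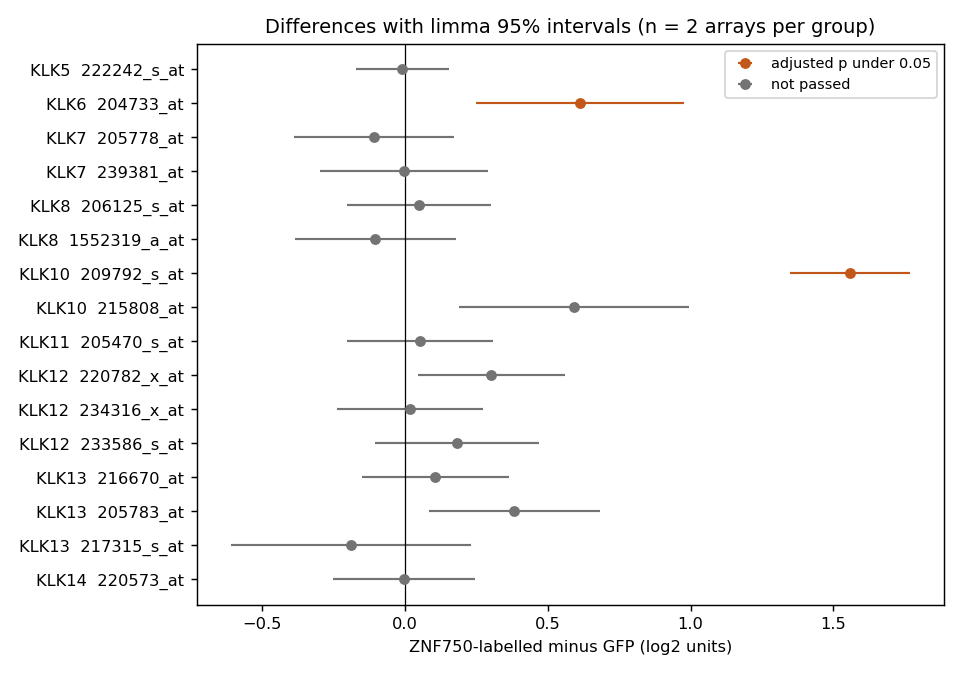
Difference between ZNF750-labelled and GFP arrays in log2 units (horizontal axis) for each kallikrein probe set, with limma's 95% interval. The orange points, KLK10 209792_s_at at 1.56 and KLK6 at 0.61, passed an adjusted p of 0.05, and the 14 grey points did not.

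Among the kallikreins, 2 of 16 probe sets rose and 0 fell (limma adjusted p under 0.05), or 12.5%. Of all 54613 probe sets, 4.30% were called higher, 7.19% lower and 11.5% in either direction. Lower ones made up 62.6% of these calls, but 46.2% after centring on brighter probe sets. The share of kallikrein probe sets called in either direction was therefore near that of the whole table. Taking only the brightest probe set of each gene, 2 of the 9 measured members rose, against 7.79% of all genes called higher, 10.2% lower and 18.0% in either direction. At an unadjusted limma p under 0.05, 5 (31.2%) were higher and 0 lower, against 12.4% and 13.8% of all probe sets. The groups did not overlap on 6 of the 16 with ZNF750 higher, or 37.5%, and on 0 with ZNF750 lower, against 29.9% and 24.3% of all probe sets, together 54.2%. The median difference was 0.051 over the 16 and 0.026 over all probe sets. With 2 arrays against 2, an exact two-sided permutation test of a single probe set cannot go below 0.333 and was not used.

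Of the 16 kallikrein probe sets, 10 were brighter and 6 dimmer than the median of all probe sets (log2 5.47), the limit for the word dim here. As a rough guide to an unexpressed probe set, 27 probe sets of 17 genes restricted to other organs had a 90th percentile of 5.88 (log2, mean over the 4 arrays). Of the kallikrein probe sets, 5 were above it, belonging to KLK5, KLK10, KLK12 and KLK14, and the KLK6 probe set, at 5.83, was just below. The highest of the 27 read 6.99, and KLK5 alone among the kallikreins had a mean above that. Where a signal lies at background, a change of the transcript cannot be seen.

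In the order of protein-coding genes on chromosome 19 in RefSeq, the 2 kallikreins that rose were not next to each other. KLK7, KLK8 and KLK9 lie between KLK6 and KLK10, and KLK7 and KLK8 did not pass. On the other side of KLK10, KLK11 did not pass. Of the other tissue kallikreins, KLK9 was not analysed here. The 5 measured were KLK1, KLK2, KLK3, KLK4 and KLK15, which include the gene of prostate-specific antigen (KLK3). Of their 17 probe sets 0 were called, against 11.5% of all probe sets called in either direction. Their brightest probe sets differed by 0.029 (KLK2) to 0.14 (KLK15). At an unadjusted limma p under 0.05, 0 of those 17 were higher and 1 lower, against 12.4% and 13.8% of all probe sets. The lower one was KLK2 209854_s_at, named after its value was seen (-0.33 ± 0.12). The neighbours outside the cluster did not pass either: GPR32 (0.0051 ± 0.15) and ACP4 (0.16 ± 0.13) lie on one side, and SIGLEC9 (0.25 ± 0.10) and SIGLEC7 (-0.038 ± 0.10) on the other. SMIM47 and CTU1, the remaining neighbours, were not analysed here.

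**Figure D4:**
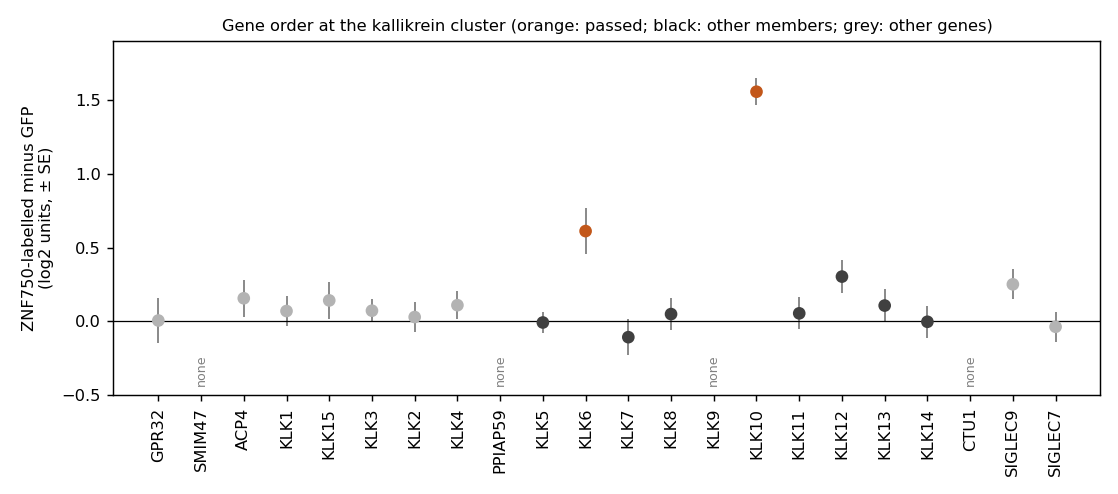
Difference in log2 units with its standard error (vertical axis) for the brightest probe set of each protein-coding gene, in the order in which RefSeq places them at the kallikrein cluster, with distances not drawn to scale. KLK10 (1.56) and KLK6 (0.61) stand above genes on either side that lie between -0.11 and 0.30.

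Other genes of the kallikrein system were taken from lists of inhibitors, activators and substrates. Of 12 measured inhibitors other than SPINK5, 2 rose, 0 fell and 10 did not pass. Of all genes, by their brightest probe sets, 7.79% were called higher, 10.2% lower and 18.0% in either direction. SLPI, a secreted inhibitor that can block KLK7, had log2 group means of 9.87 with GFP and 12.27 in the ZNF750-labelled arrays. It rose by 2.40 ± 0.041 (limma adjusted p = 1.99e-06). PI3, encoding the elastase inhibitor elafin, rose on both of its probe sets, by 1.42 ± 0.16 on the brighter 203691_at (limma adjusted p = 0.00251) and by 1.87 ± 0.12 on 41469_at. The PI3 GFP means of 5.51 and 4.30 lay below the 5.88 guide to unexpressed probe sets, so the size of these rises is uncertain. SPINT1, an inhibitor of the membrane proteases that can act upstream of kallikreins, differed by -0.23 ± 0.066 (202826_at) and did not pass. SERPINA3, a serpin of chymotrypsin-like proteases, differed by 0.29 ± 0.14 (202376_at) and did not pass either. At an unadjusted limma p under 0.05, 4 of the 16 inhibitor probe sets were higher (SLPI, both of PI3 and, named after its value was seen, A2M 217757_at with 0.40 ± 0.13) and 1 lower (SPINT1), against 12.4% and 13.8% of all probe sets. Without GFP replicate 1 the difference was 2.41 for SLPI and 1.52 for PI3 203691_at. Without GFP replicate 2 these were 2.39 and 1.32. The median difference over the brightest probe sets of the 12 genes was 0.077, against 0.0355 over all genes.

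Of 11 proteases known or proposed to activate kallikreins or each other, 1 rose, 1 fell and 9 did not pass. Of all genes, by their brightest probe sets, 7.79% were called higher, 10.2% lower and 18.0% in either direction. At an unadjusted limma p under 0.05, 2 of this list's 17 probe sets were higher and 2 lower, against 12.4% and 13.8% of all. PLAT, the tissue plasminogen activator, rose by 0.99 ± 0.065 (201860_s_at, limma adjusted p = 0.000422). PLAU, the urokinase activator, fell on both probe sets, by 0.35 on the brighter 205479_s_at (SE 0.064, limma adjusted p = 0.0152) and by 0.67 on 211668_s_at. TMPRSS11D (0.22 ± 0.089) and TMPRSS11E (0.20 ± 0.13), membrane-bound trypsin-like proteases, did not pass. ST14, encoding matriptase, and PRSS8, encoding prostasin, named after their values were seen, differed by -0.029 ± 0.074 and -0.082 ± 0.10 and did not pass. With 1 array left out in turn, PLAT differed by 0.92 to 1.06 and PLAU 205479_s_at by -0.43 to -0.26. The median difference over the 11 genes was 0.059.

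Of 12 measured substrates and downstream genes, 3 rose, 1 fell and 8 did not pass. Their median difference was 0.18, against 0.0355 over all genes. By their brightest probe sets, 7.79% of all genes were called higher and 10.2% lower. At an unadjusted limma p under 0.05, 8 of this list's 22 probe sets were higher and 3 lower, against 12.4% and 13.8% of all. FLG, encoding filaggrin, rose by 1.74 ± 0.12 (215704_at, limma adjusted p = 0.000510). Its GFP mean of 5.66 lay below the 5.88 guide to unexpressed probe sets, so the size of this rise is uncertain. IL1B, a cytokine made as a precursor that proteases cleave, rose by 0.81 ± 0.076 on 205067_at (limma adjusted p = 0.00149). DSG3, a desmosomal cadherin, rose by 0.40 ± 0.093 (235075_at, limma adjusted p = 0.0346). SMPD1, encoding acid sphingomyelinase, fell by 0.47 on 209420_s_at (SE 0.096, limma adjusted p = 0.0220), did not pass on its other 3 probe sets and gave -0.16 as the mean of its probe sets. With 1 array left out in turn, these probe sets kept their direction. FLG differed by 1.60 to 1.89, IL1B by 0.72 to 0.89, DSG3 by 0.30 to 0.50 and SMPD1 by -0.54 to -0.39. The corneodesmosome genes whose products KLK5 and KLK7 cleave, named after their values were seen, were dim: CDSN differed by 0.18 ± 0.18, DSC1 by 0.050 ± 0.23 and DSG1 by 0.019 ± 0.11, and their groups overlapped.

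Of 11 measured other proteases of squamous epithelia, 0 rose and 3 fell. By their brightest probe sets, 7.79% of all genes were called higher, 10.2% lower and 18.0% in either direction. PRSS23, a secreted serine protease, fell by 0.95 on 202458_at (SE 0.053, limma adjusted p = 0.000289). CTSC, the lysosomal cathepsin C, fell by 0.54 on 225646_at (SE 0.054, limma adjusted p = 0.00179), and CTSD, the lysosomal cathepsin D, by 0.33 (SE 0.074, limma adjusted p = 0.0315). The other probe sets gave -1.13 to 0.11 for PRSS23 and -0.62 to 0.018 for CTSC. Of those, PRSS23 1565677_at and CTSC 231234_at did not pass. At an unadjusted limma p under 0.05, 0 of this list's 18 probe sets were higher and 8 were lower, against 12.4% and 13.8% of all probe sets. The 8 belong to 4 genes, with BLMH, a cysteine protease of filaggrin breakdown (-0.30 ± 0.088), beside these 3. The median difference was -0.18. With 1 array left out in turn, PRSS23 202458_at differed by -1.01 to -0.90, CTSC 225646_at by -0.59 to -0.50 and CTSD by -0.39 to -0.26.

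**Figure D5:**
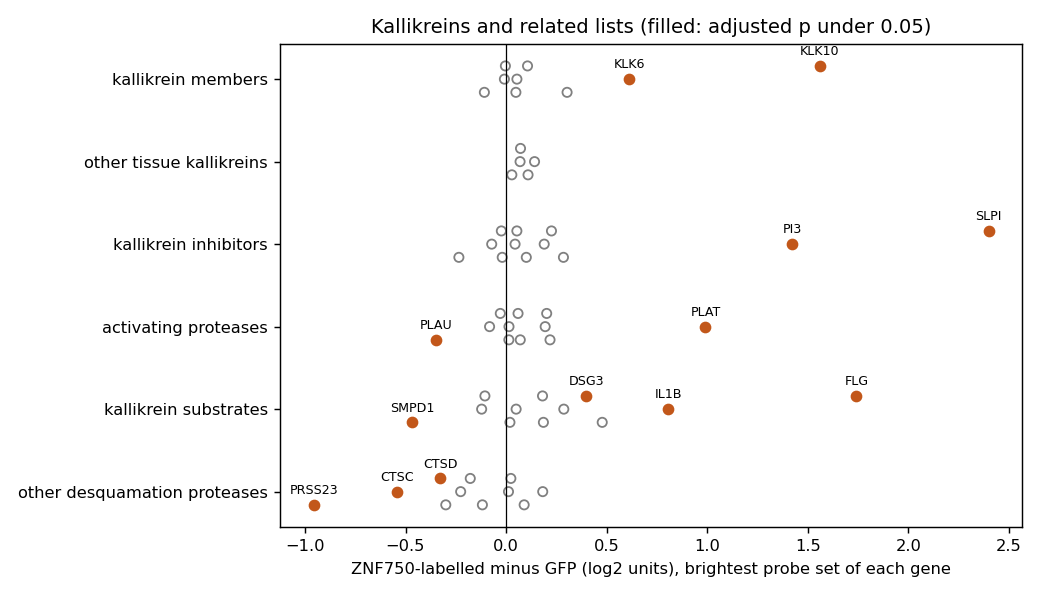
Difference in log2 units (horizontal axis) for the brightest probe set of each gene, by list (rows, with points spread vertically to separate them), with genes past an adjusted p of 0.05 filled and named. SLPI (2.40), FLG (1.74) and KLK10 (1.56) lie farthest to the right and PRSS23 (-0.95) farthest to the left.

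The genes whose values over the 4 arrays were most like those of KLK10 were found by Euclidean distance between centred log2 values, over the brightest probe sets of 19775 genes. They were S100A9, a calprotectin subunit (distance 0.093), SCD, a fatty acid desaturase (0.12), ARRDC3, an alpha-arrestin (0.16), LCN2, a secreted siderophore-binding protein (0.18), and PGR, the progesterone receptor (0.25). Their differences were 1.64 for S100A9, 1.54 for SCD, 1.57 for ARRDC3, 1.39 for LCN2 and 1.35 for PGR. With 4 arrays in 2 groups, this measure mostly finds genes with a difference of the same size.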

How the data were processed

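The authors deposited 1 table of log2 values for 54675 probe sets on 4 single-colour arrays. Per the submitters' processing notes they used RMA (version not given in the sources used here), which corrects background, quantile normalizes and summarises probes. No detection calls were used, and the number of arrays limits precision.

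Symbols came from the platform annotation. Among 54613 non-control probe sets, 1 symbol stood beside 41091, several beside 1801 and none beside 11721. Differences (ZNF750-labelled minus GFP) came from a linear model per probe set (R 4.3.3, limma 3.58.1), moderated by eBayes with a trend on intensity and with 2 residual degrees of freedom, with Benjamini-Hochberg adjustment over all of them and a call under 0.05. The script was tested on simulated data. Errors with ± are limma's standard errors.

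Every kallikrein probe set is given. Of each related list, up to 4 genes are named, those called with the largest differences first, from the brightest probe set. The members and lists were chosen with earlier results of these data known. Replicates with the same number were not paired in the labels, so no block was used.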

Additional observations from a re-analysis of the deposited data

How the results depend on the processing

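The brighter KLK10 probe set kept its direction in all 13 alternatives that held it. Its difference ran from 1.08 with the mean of its probe sets to 1.64 without ZNF750 replicate 2. KLK6 kept its direction in all 14 (0.40 to 0.83). Among fits that keep all arrays, the brighter KLK10 probe set kept its call in each that held it. KLK6 lost its call without the intensity trend, with the replicate block and without _s_at and _x_at probe sets. KLK10 215808_at passed after centring on brighter probe sets (limma adjusted p = 0.0348) and in no other alternative that keeps all arrays. The other 13 kallikrein probe sets did not pass in any alternative that keeps all arrays. The cause of the lost calls was not tested.

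Of the kallikrein probe sets, 2 were higher as reported and 0 without _s_at and _x_at probe sets. The number was 1 without the intensity trend, with the replicate block or at an adjusted p under 0.01. It was 3 after centring on brighter probe sets or at an adjusted p under 0.1. The number lower was 0 throughout. Over the whole table, 2348 were higher and 3927 lower, against 520 and 754 without the intensity trend, 704 and 1474 at an adjusted p under 0.01, 961 and 1457 with a log2 difference of at least 0.5, and 8 to 267 and 1 to 661 with each array left out. The counts were 1541 and 2013 with the brightest probe set per gene, 1043 and 1600 with the mean of probe sets and 1230 and 1845 without _s_at and _x_at probe sets, fits that hold fewer features. Those higher numbered 3912 at an adjusted p under 0.1 and 4176 after centring on brighter probe sets. Lower probe sets made up 62.6% of the calls, 46.2% after that centring, 53.1% with quantile normalization repeated and 54.2% with cyclic loess. Deviations of the first replicates of both groups correlated at 0.13 across probe sets (0.26 over the brighter ones), which is a hint from the data and not the design, and the replicate block gave 2002 higher and 3792 lower.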
